A study of Mus musculus with 12 samples.

Results

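The genes described here are 41 interferon-stimulated genes of the mouse, given as a fixed list of symbols and matched to the Ensembl identifiers of the deposited tables. All 41 were found among the 56953 genes of the tables, and 40 of them had a count in every library; Gbp5 had none in 1 library. Their levels were compared in 4 groups of sorted bone marrow cells with 3 libraries each. All cells came from 8-week-old female C57BL/6J mice, and the study's methods give the genotype as Rank cre/+; R26.eYFP fl/+. In these mice Cre is expressed from the Rank locus and switches on the fluorescent protein eYFP, and adult blood stem cells do not express it, so eYFP+ macrophages are those of embryonic origin and eYFP- macrophages are those derived from adult stem cells. Both macrophage groups passed the same gate (CD45+, low Gr1, F4/80, CD206+ and VCAM1+) and differed only in eYFP. The Ly6Chi and Ly6Clo monocytes were CD11b+ cells separated by the surface protein Ly6C. The origin of a cell was therefore read from the reporter alone. The labels name no infection or interferon treatment and do not say whether the libraries of a group came from separate mice, so the p-values measure the spread between these samples.

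Interferons are secreted proteins that cells make after sensing viral or bacterial nucleic acids. Type I interferons bind the receptor formed by IFNAR1 and IFNAR2 and lead to a complex that holds STAT2 and IRF9 and binds the interferon-stimulated response element in promoters, whereas interferon gamma acts on gamma-activated sites. The genes switched on in this way sense viral RNA, degrade or trap it, block virus assembly, or attack the vacuoles of intracellular microbes, and many of them are transcribed at a low level in resting cells as well.

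The promoters were examined for both elements, since these sequences are what the genes are thought to share. RefSeq promoters (build GRCm38.p6, 250 bases before to 50 bases after the transcription start) were given for 32 of the 41 genes. The core of the response element, GAAA followed after any 2 bases by GAAA, on either strand, was present in 22 of these 32 genes (68.8%), against 3.99% of the 27025 genes with a promoter. The core of the gamma-activated site, TTCNNNGAA, which reads the same on both strands, was present in 10 of the 32 genes (31.2%), against 9.55% of all genes. Matches of the cores were counted whether or not they overlapped each other, and 6 genes held both cores while 6 held neither in this window. By role, the response element core was present in 3 of 3 sensors, 3 of 5 OAS genes, 3 of 4 IFIT genes, 4 of 5 genes of the ISG15 group, 3 of 8 other effectors and 6 of 7 GBP and IRG genes. Isg20, Samhd1, Ifi44 and Ifi47 did not hold it in this window. For 8 genes that hold the response element core and are described in the comparisons, 30 bases are given below, on the strand of the gene from 5′ to 3′. They lie around the core that is upstream of the start and nearest to it. That core is in capitals (TTTC, any 2 bases and TTTC is the core read on the opposite strand). In Isg15 and Bst2 a further core overlaps it and is partly in lower case.
Isg15, chr4:156200865-156200894, minus strand: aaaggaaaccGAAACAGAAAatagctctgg
Oas3, chr5:120777715-120777744, minus strand: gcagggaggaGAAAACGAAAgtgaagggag
Slfn5, chr11:82951937-82951966, plus strand: ccttcaaagtGAAAAAGAAAaaaaaaaaag
Bst2, chr8:71537577-71537606, minus strand: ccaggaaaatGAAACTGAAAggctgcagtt
Gbp7, chr3:142530273-142530302, plus strand: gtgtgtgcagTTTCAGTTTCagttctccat
Ifit1, chr19:34640794-34640823, plus strand: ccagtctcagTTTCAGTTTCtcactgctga
Ifit3, chr19:34583397-34583426, plus strand: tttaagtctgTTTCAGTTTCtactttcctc
Ifit3b, chr19:34607793-34607822, plus strand: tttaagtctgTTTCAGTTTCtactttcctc
The windows of Ifit3 and Ifit3b have the same letters. These genes are near-identical copies, and 51.2% of the 50-base words of the longest Ifit3 transcript also occur in Ifit3b. For Oas1a and Oas1g the share is 56.9%. The methods of the study state that only unambiguously aligned read pairs were counted. Read pairs that match both copies would then be missing, so the levels of these 4 genes are uncertain and may be too low.

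Depth ranged from 26390927 to 48618187 counts per library. The labelled cell types were visible in their markers, with 7 resident macrophage markers summing to between 19765 and 31910.3 TPM (counts per gene length, scaled to a sum of 1000000 in each library) in macrophages and between 538 and 1174 in monocytes, and 6 classical monocyte markers reaching 11819 to 12354 TPM in Ly6Chi and 382 to 668 TPM in Ly6Clo monocytes. A pair of libraries stood apart by the GC content of what they captured, since against the remaining libraries of their groups the 10% of transcripts richest in GC had a median log2 ratio of -1.34 in Ly6Clo replicate 2 and of -0.73 in eYFP+ replicate 1. Ly6Clo replicate 2 also held far more of the dendritic cell markers, with 2843 TPM over 6 genes (Cd209a alone 2820.3) against 612 and 672 in the other Ly6Clo libraries. Ly6Clo replicate 2 had the lowest depth and a count in 16434 genes, against 22254 and 24769 in the others of its group and 21330 or more in the other groups.

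The level of the 41 genes was first compared across the groups. Their TPM summed to 3969.8, 4947 and 5199 in the Ly6Chi libraries, to 2673, 2860.4 and 3647 in eYFP+ macrophages, to 2668, 2714 and 2789 in eYFP- macrophages and to 2166, 2279 and 2411 in Ly6Clo monocytes. The 3 Ly6Chi libraries were thus the highest of the 12 and the 3 Ly6Clo libraries the lowest, while the macrophage groups overlapped. In summed normalized counts the Ly6Chi libraries were again the highest, but Ly6Clo replicate 2 (123703) lay above 2 of the 3 eYFP- libraries (112653, 117511 and 127014) and above eYFP+ replicate 2 (118422). The median gene had a mean of 94.7 TPM in Ly6Chi monocytes, 48.2 in eYFP- macrophages, 44.3 in eYFP+ macrophages and 34.1 in Ly6Clo monocytes. Ly6Chi monocytes had the highest mean TPM of the 4 groups for 32 of the 41 genes (23.6% of the 22385 genes tested), and for 19 of them all 3 Ly6Chi libraries lay above the other 9 (5.89% of the genes tested). No member was above the other 9 libraries in all 3 eYFP+ (2.45% of the genes tested), all 3 eYFP- (3.88%) or all 3 Ly6Clo libraries (3.4%). Ly6Clo monocytes had the lowest mean for 28 genes (30.2% of the genes tested) and the highest for none (23.1%). Bst2, which encodes tetherin, a membrane protein that holds budding virus at the cell surface, was the most abundant of the genes in both macrophage groups (means of 477 and 399 TPM), and Samhd1, a hydrolase of nucleotides needed for reverse transcription, was the most abundant in Ly6Chi monocytes (450.2 TPM). Gbp5 and Iigp1 were at the lower end, at a few TPM in at least 1 group.

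**Figure D1:**
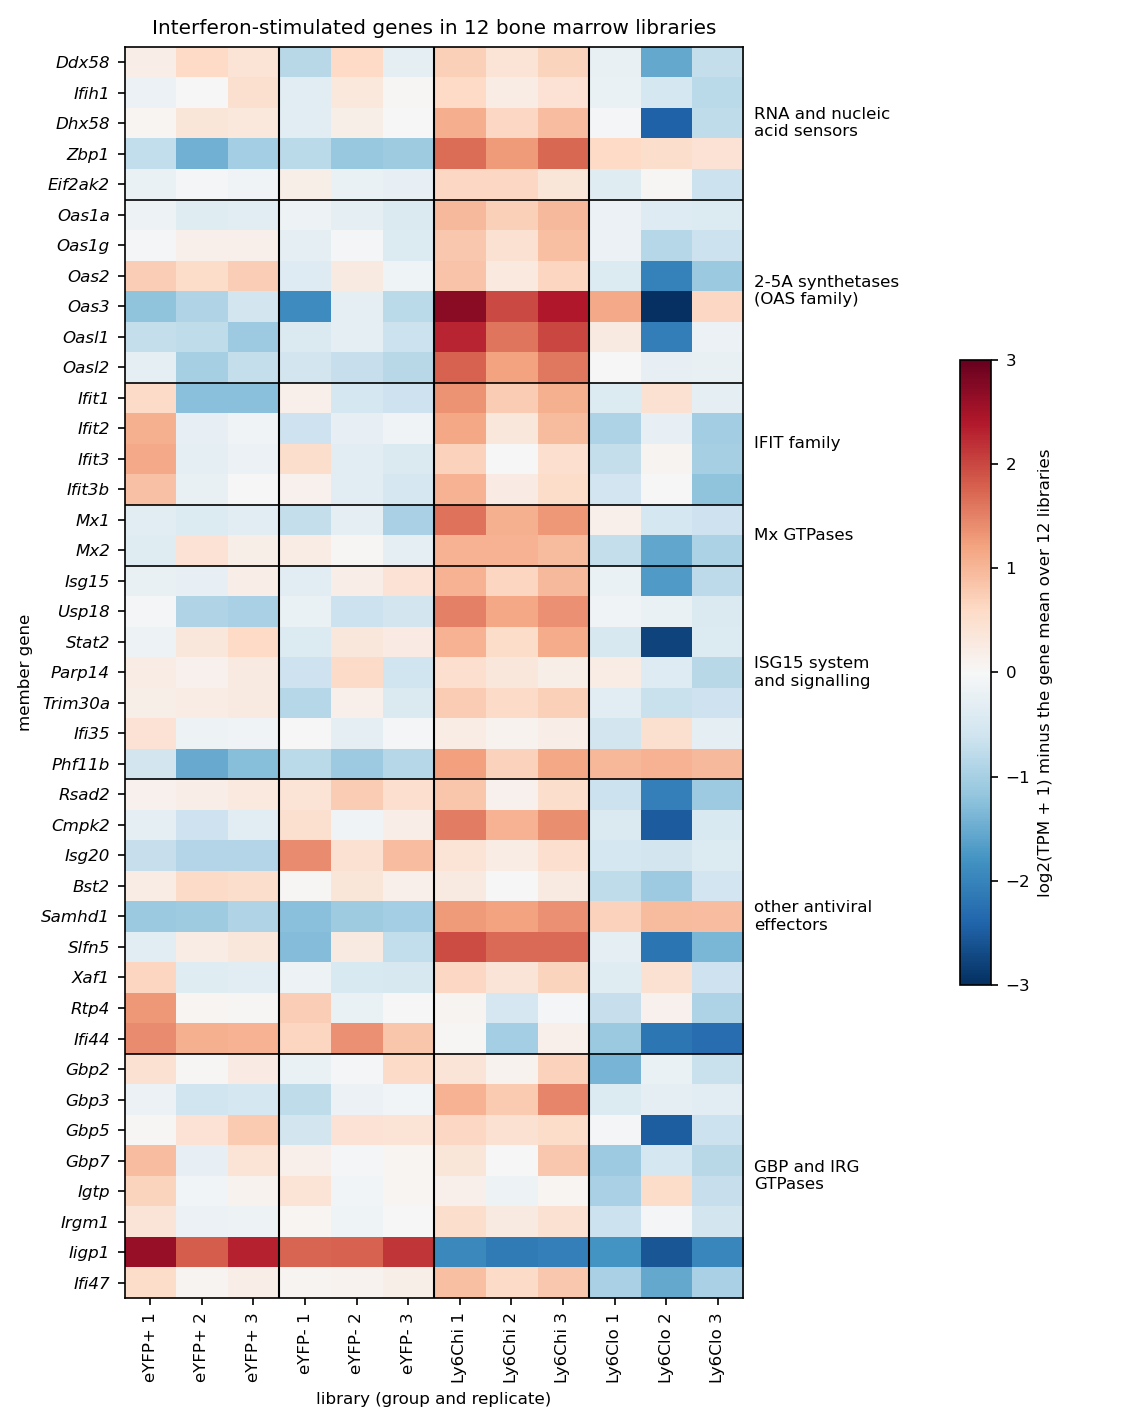
Heat map of log2(TPM + 1) of the 41 genes (rows, ordered by role) in the 12 libraries (columns), each gene centred on its mean over the libraries. Most rows are reddest in the 3 Ly6Chi columns, Iigp1 and Ifi44 are red in the 6 macrophage columns, and Ly6Clo replicate 2 holds the darkest blue cells, among them Oas3, Stat2 and Gbp5.

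**Figure D2:**
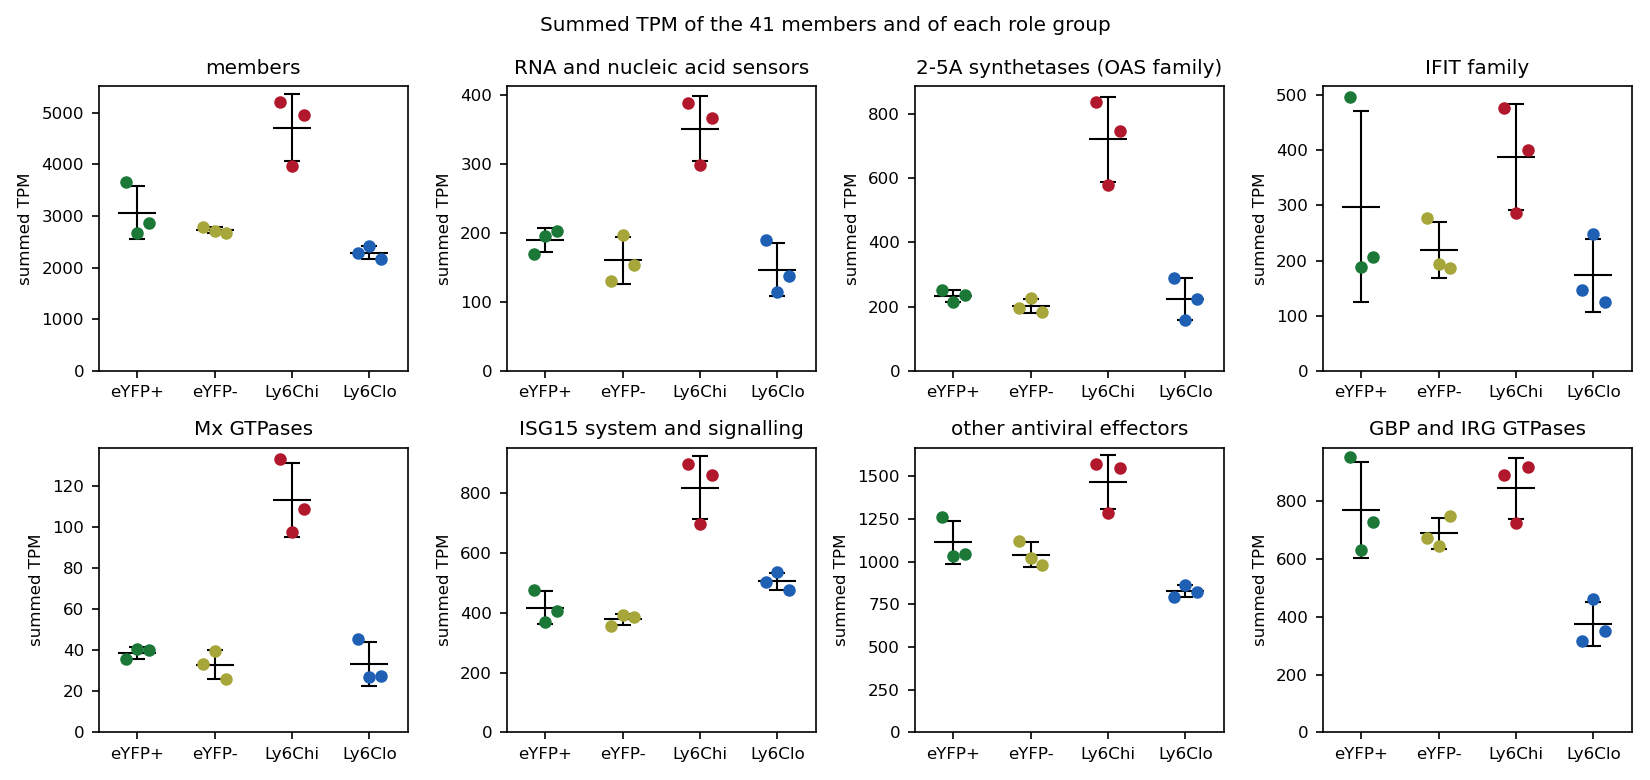
Summed TPM of the 41 members and of each of the 7 role groups, with a point for each library and lines for the mean and SD of 3 libraries; each panel starts at 0 and has its own scale. The Ly6Chi points lie above all others for the sensors, OAS, Mx, ISG15 and other effector groups, but overlap the macrophage points for the IFIT and the GBP and IRG groups.

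The groups of monocytes were compared to see how the genes differ between the monocyte subsets of the marrow. Of the 41 genes, 25 were higher in Ly6Chi monocytes and none was lower (DESeq2 adjusted p under 0.05). Among all genes tested in this comparison, 8.62% passed, 3.66% as higher and 4.97% as lower. The edgeR quasi-likelihood test called 20 of the same 25 genes and no other (4.32% of all genes by edgeR, 1.81% higher and 2.51% lower). All 41 genes had a positive log2 fold change, with a median of 1.29 (0.02 over all genes) and a range from 0.05 (Phf11b) to 2.97 (Slfn5), and no gene was lower at an unadjusted p under 0.05 in either test. In 34 genes all Ly6Chi libraries lay above all Ly6Clo libraries in normalized counts (16.2% of all genes tested were higher without overlap). Since each library pools many cells, more cells with a transcript and more transcript per cell cannot be told apart here or in the other comparisons.

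The sensors of viral nucleic acid were higher in Ly6Chi monocytes in 5 of 5 cases by DESeq2 and in 3 by edgeR, but in none by DESeq2 when Ly6Chi replicate 1 was left out. Ddx58 encodes RIG-I and Ifih1 encodes MDA5, which detect viral RNA in the cytoplasm, Dhx58 encodes their relative LGP2, Zbp1 binds nucleic acids in the Z form and Eif2ak2 encodes the kinase PKR, which stops translation. Zbp1 was at 125, 95.2 and 129 TPM in Ly6Chi monocytes and at 59.2, 56.1 and 52.5 TPM in Ly6Clo monocytes. These libraries did not overlap, and the log2 difference was 1.06 ± 0.31 (SE; DESeq2 adjusted p = 0.0128, edgeR adjusted p = 0.0403), a call that was also lost without Ly6Chi replicate 3 or without Ly6Clo replicate 3. Dhx58 and Eif2ak2 passed with DESeq2 only, with edgeR adjusted p of 0.0513 and 0.0646. Dhx58 stood at 10.2 TPM in Ly6Clo replicate 2, against 57.6 and 34.4 in the others.

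The oligoadenylate synthetases make 2-5A, which activates the RNase that degrades viral RNA. Of these genes and their relatives, 5 of 6 were higher in Ly6Chi monocytes with both tests. Oasl2 was at 294, 202 and 260.2 TPM in Ly6Chi and at 85.1, 72.7 and 73.8 TPM in Ly6Clo monocytes. The groups lay far apart, with a log2 difference of 1.71 ± 0.31 (SE; DESeq2 adjusted p = 2.98e-06, edgeR adjusted p = 0.00387). Oas1g had 46.1, 35.8 and 49.2 TPM against 22.8, 13.9 and 16.0 (log2 difference 1.33 ± 0.25, SE, DESeq2 adjusted p = 6.82e-06, edgeR adjusted p = 0.00702). Oas2 had 72.8, 48.4 and 62.2 TPM against 29.6, 9.02 and 17.8 (log2 difference 1.73 ± 0.39, SE, DESeq2 adjusted p = 0.000299, edgeR adjusted p = 0.0179). Oas3 was the exception to the call although its Ly6Chi values of 189, 114 and 153 TPM all lay above its Ly6Clo values of 63, 2.16 and 44.0. The call depended on the libraries and the processing. DESeq2 gave an adjusted p of 0.0571 with all libraries (log2 difference 2.11 ± 0.75, SE) and of 0.00235 without Ly6Clo replicate 2 (log2 difference 1.56). Oas3 also passed DESeq2 with that library kept, both without Ly6Clo replicate 1 and after GC correction.

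The Mx genes encode dynamin-like GTPases that block viral replication, and C57BL/6 mice are known to carry alleles of both that yield no functional protein. Their transcripts were nonetheless higher in Ly6Chi monocytes. Mx2 was at 22.2, 21.9 and 20.5 TPM in Ly6Chi and at 5.79, 2.83 and 4.77 TPM in Ly6Clo monocytes. Mx1 was at 111, 76.1 and 88.6 TPM against 39.9, 24.3 and 22.7. Both differences passed both tests, at 2.29 ± 0.33 (SE; DESeq2 adjusted p = 9.99e-10, edgeR adjusted p = 0.00185) for Mx2 and 1.69 ± 0.30 (SE; DESeq2 adjusted p = 1.49e-06, edgeR adjusted p = 0.00398) for Mx1 on the log2 scale.

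The IFIT family, whose proteins bind viral RNA that lacks the cap marks of the host, was called least. Only Ifit2 passed DESeq2 (adjusted p = 0.0132), and none of the 4 passed edgeR, where 2 had an unadjusted p under 0.05. Ifit1 was at 71.6, 47.5 and 58.5 TPM in Ly6Chi and at 20.4, 38.0 and 22.7 TPM in Ly6Clo monocytes. These values did not overlap either, yet the log2 difference of 1.12 ± 0.58 (SE) gave a DESeq2 adjusted p of 0.255 and an edgeR adjusted p of 0.272. Ly6Clo replicate 2 had the highest Ifit1, Ifit2, Ifit3 and Ifit3b of its group, the opposite of its place for Oas3 and Dhx58. Without both libraries that stood apart in GC content, all 4 genes passed DESeq2, at log2 differences of 1.34 (Ifit3) to 1.92 (Ifit2).

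Of the ISG15 system and the genes of interferon signalling, 4 of 7 were higher in Ly6Chi monocytes by DESeq2 and 3 by edgeR. Isg15, a ubiquitin-like protein that is attached to others during infection, was at 59.0, 44.5 and 56.6 TPM in Ly6Chi and at 24.4, 7.94 and 15.8 TPM in Ly6Clo monocytes. The libraries did not overlap (log2 difference 1.76 ± 0.38, SE, DESeq2 adjusted p = 0.0002, edgeR adjusted p = 0.0189). Stat2, a signal transducer of the type I response, was at 101, 71.5 and 106 TPM against 34.4, 6.23 and 36.1. It passed DESeq2 (adjusted p = 0.00569) but not edgeR (adjusted p = 0.0582), and the log2 difference of 1.89 was 1.44 without Ly6Clo replicate 2. Usp18, which removes ISG15 and blocks the receptor, and Trim30a, a regulator of inflammatory signalling, passed both tests. Phf11b differed by less than its error, at 261, 178 and 249.7 TPM in Ly6Chi and 220.5, 228 and 218 TPM in Ly6Clo monocytes, with a log2 difference of 0.05 ± 0.36 (SE) and a DESeq2 adjusted p of 0.969.

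Of the other antiviral effectors, 5 of 9 were higher in Ly6Chi monocytes with both tests. Slfn5, a member of the Schlafen family, showed the widest gap of the 41 genes, with 125, 104 and 105 TPM in Ly6Chi and 26, 6.16 and 11.5 TPM in Ly6Clo monocytes. The difference of 2.97 ± 0.49 on the log2 scale (SE) was 7.86-fold (DESeq2 adjusted p = 1.2e-07, edgeR adjusted p = 0.00554), and leaving out 1 library moved it between 2.63 (without Ly6Clo replicate 2) and 3.62 on the log2 scale (without Ly6Clo replicate 1). Rsad2 (viperin, an inhibitor of viral polymerases), its neighbour Cmpk2, Bst2 and Ifi44 were the other 4. Bst2 was at 418, 344 and 421 TPM against 206, 163 and 234 (log2 difference 0.98 ± 0.21, SE, DESeq2 adjusted p = 0.000142, edgeR adjusted p = 0.0134), and it was not called by DESeq2 when only the 6 monocyte libraries were fitted (adjusted p = 0.0876). Bst2 is also a marker of plasmacytoid dendritic cells, whose 7 markers summed to at most 16.6 TPM in any library, with the defining Siglech at most 2.61. Samhd1 and Rtp4 were not called, with Samhd1 at 447, 429 and 474 TPM against 298, 356 and 349, which did not overlap (log2 difference 0.43 ± 0.20, SE, DESeq2 adjusted p = 0.176, edgeR adjusted p = 0.158). Without both GC-shifted libraries it passed DESeq2 (log2 difference 0.51, adjusted p = 0.023). Rtp4 was at 218, 144 and 200.3 TPM against 127, 225 and 107 and overlapped.

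The guanylate-binding proteins (GBP) and immunity-related GTPases (IRG) attack the vacuoles of intracellular microbes and are typical targets of interferon gamma. Of these 8 genes, 3 were higher in Ly6Chi monocytes by DESeq2 and 2 by edgeR, namely Ifi47 and Gbp3. Ifi47 was at 345, 275 and 324 TPM in Ly6Chi and at 93.4, 62.1 and 92.4 TPM in Ly6Clo monocytes. It had the lowest adjusted p of the 41 genes in this comparison (log2 difference 1.94 ± 0.28, SE, DESeq2 adjusted p = 4.29e-10, edgeR adjusted p = 0.00114). Gbp2 was not called, with 93.1, 75.5 and 115 TPM against 26.2, 61.7 and 43.9 (log2 difference 1.09 ± 0.40, SE, DESeq2 adjusted p = 0.0707, edgeR adjusted p = 0.0915). Irgm1 was likewise not called, with 206, 171 and 196 TPM against 90.8, 139 and 97.6 (DESeq2 adjusted p = 0.12, edgeR adjusted p = 0.109). Without Ly6Clo replicate 2 both passed DESeq2, and the log2 differences were 1.47 and 1.06. Gbp5 was listed at 0 in that library, where a count of 0 allows up to 3 counts of the library total.

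The number of genes called thus rested in part on the libraries that stood apart. Without Ly6Clo replicate 2, DESeq2 called 31 of the 41 genes (9.70% of all genes), and without it and eYFP+ replicate 1 it called 37 (13.6% of all genes), all as higher in Ly6Chi monocytes and including the 25 genes of the full fit. The medians of the log2 fold change were 1.34 in both fits, and 40 of 41 were positive, with Iigp1 at -0.13 and -0.14 as the exception. The dendritic cell markers named above were higher in all Ly6Clo than in all Ly6Chi libraries (612 to 2843 against 109.8 to 123 TPM), and the 8 neutrophil and precursor markers were higher in Ly6Chi monocytes in 3 cases by both tests and summed to 23870.4, 15692 and 20407 TPM against 15818, 6694 and 8801. Cells low in Gr1, an antigen that is high on neutrophils, were selected ahead of the monocyte gate. The 4 megakaryocyte and platelet markers summed to 3.97, 2.88 and 2.13 TPM in Ly6Chi against 69.3, 75.0 and 58.2 in Ly6Clo monocytes, with Pf4 called lower in Ly6Chi by both tests. The 8 T and NK cell markers summed to 53.3, 30.9 and 38.1 against 98.2, 68.7 and 101.8 TPM, with Klrd1 called lower and Nkg7 higher in Ly6Chi by both tests and Ncr1 lower by DESeq2 alone. Of the 7 resident macrophage markers 5 were lower in Ly6Chi monocytes by DESeq2 and 3 by edgeR, with overlapping sums (538 to 633 against 588 to 1174 TPM). Of the 5 B cell markers Cd79b was lower by both tests, and the list summed to 28.3 to 34.8 TPM in Ly6Chi against 53.9 to 139.7 in Ly6Clo monocytes. The list did not move as a whole, since 3 of its log2 fold changes were positive and 2 negative, with a median of 1.43. The 7 plasmacytoid dendritic cell markers, of which DESeq2 called 1 higher and 2 lower and edgeR 1 lower, summed to at most 0.942 TPM against 3.37 to 4.69, and none of the 6 erythroid markers was called by DESeq2 or edgeR, with 0 at an unadjusted p under 0.05 in either. The part of such cells in these differences was not tested. The response element core was present in 13 of the 19 called genes with a promoter and in 9 of the 13 others.

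**Figure D3:**
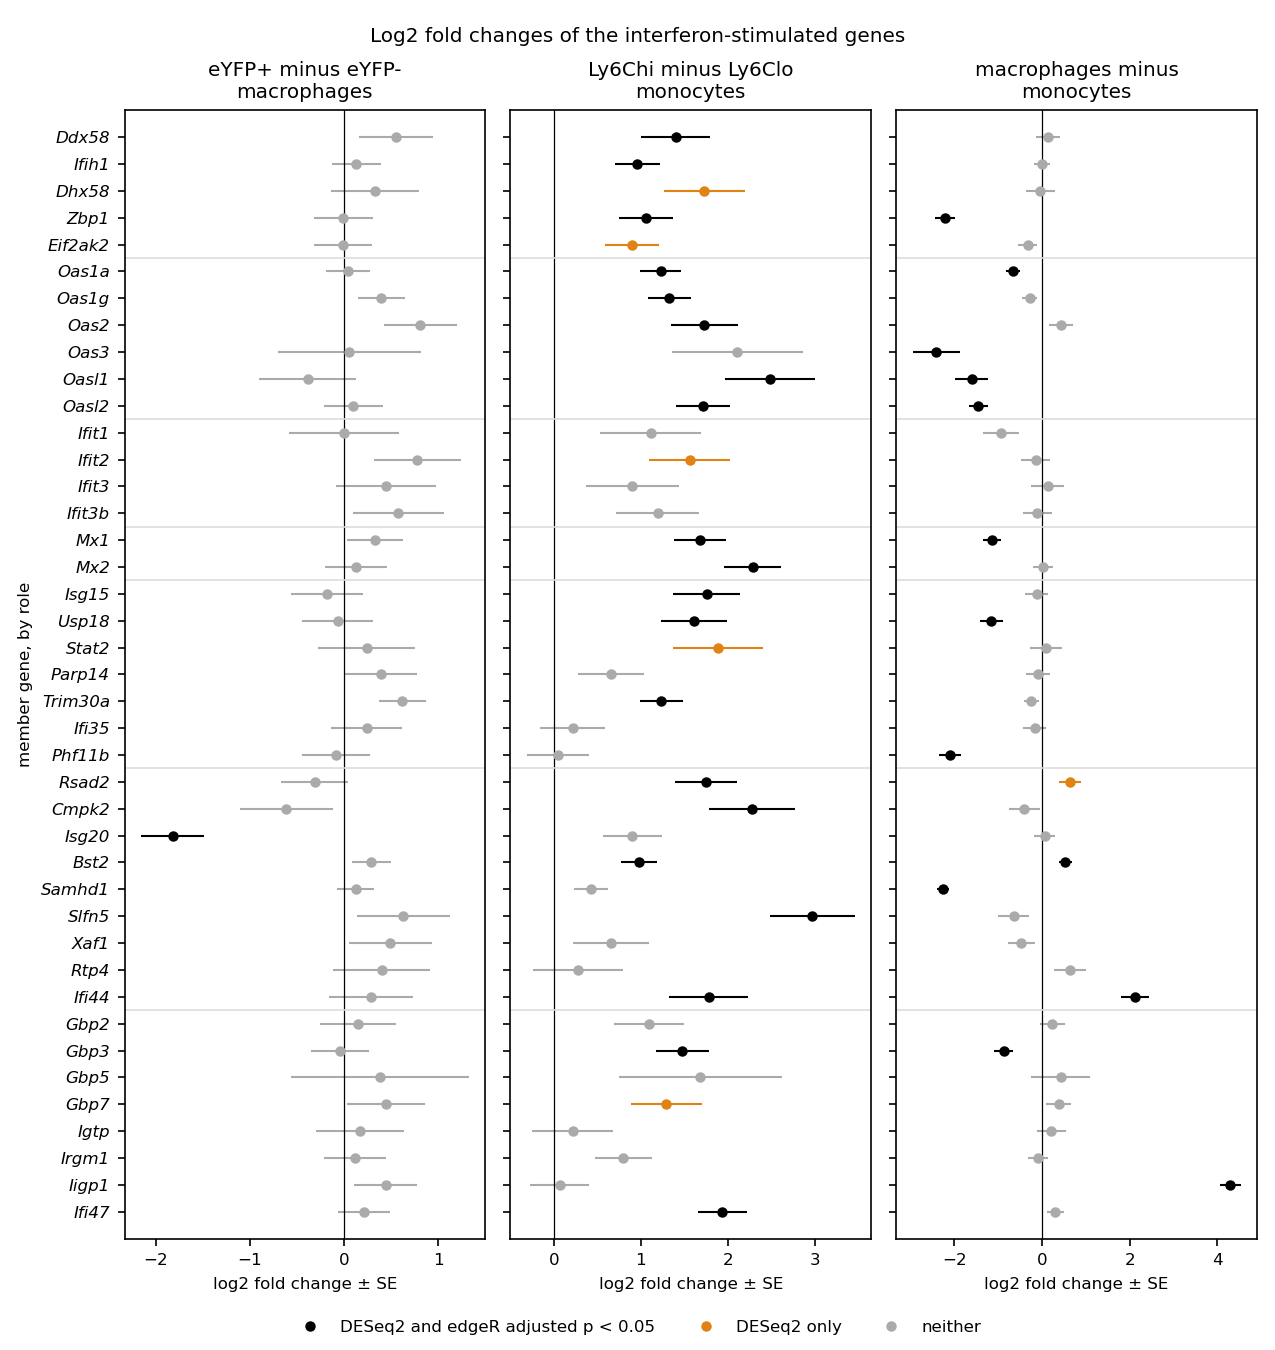
Log2 fold change with its SE (horizontal axis) of each of the 41 genes (vertical axis, by role) in the 3 comparisons, with black for genes past both tests, orange for DESeq2 only and grey for neither. All 41 points of the monocyte panel lie to the right of 0, the macrophage panel has 1 black point (Isg20), and the last panel has 13 black points on both sides; the horizontal scales differ.

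The macrophages of embryonic and adult origin were compared next, which is the contrast the reporter was chosen for. Of the 41 genes, 1 was called, Isg20, and it was lower in eYFP+ macrophages with both tests. Among all genes tested 2.04% passed DESeq2, 0.153% as higher and 1.88% as lower, and 0.334% passed edgeR, 0.00521% as higher and 0.328% as lower. Isg20 encodes an exonuclease that degrades single-stranded RNA. It was at 31.2, 27.4 and 27.2 TPM in eYFP+ macrophages and at 137, 70.9 and 97.1 TPM in eYFP- macrophages. The groups did not overlap, and all 3 eYFP+ libraries lay below the other 9 libraries, monocytes included. The difference was 3.53-fold, or -1.82 ± 0.34 on the log2 scale (SE; DESeq2 adjusted p = 2.29e-05, edgeR adjusted p = 0.0315), and edgeR with the replicate number as a block gave an adjusted p of 0.0744. Its adjusted p lay between 7.99e-08 and 0.00245 when each library was left out in turn (DESeq2).

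Markers of other cells moved with this difference. The 6 erythroid markers, of which 1 was called lower in eYFP+ macrophages by DESeq2 and none by edgeR (4 at an unadjusted p under 0.05), summed to 28474, 17503 and 24925 TPM in eYFP- macrophages and to 11869, 6939 and 8309.5 TPM in eYFP+ macrophages, in the order of the eYFP- libraries for Isg20. The 8 T and NK cell markers (2 called lower by DESeq2, 1 by edgeR) summed to 62.6, 116 and 124 TPM in eYFP- macrophages and to 9.73, 23.1 and 16.5 TPM in eYFP+ macrophages. Of these, Nkg7 alone stood at 38.3, 56.3 and 78.5 TPM against 4.32, 5.98 and 6.20. The 8 neutrophil and precursor markers (4 called lower by DESeq2, 1 by edgeR) summed to 239, 2615 and 825 TPM against 198, 138 and 122. The 6 classical monocyte markers (2 called lower by DESeq2, 1 by edgeR) summed to 9.79, 118 and 22.5 TPM against 7.55, 6.65 and 7.83. The 6 conventional dendritic cell markers (3 called lower by DESeq2, none by edgeR) summed to 19.3, 40.3 and 34.3 TPM against 3.05, 8.47 and 21.8. The sums of 2 lists overlapped. The 4 megakaryocyte and platelet markers (1 called lower by DESeq2, none by edgeR) had 135.8, 183.9 and 179.4 TPM against 199.3, 199.9 and 121.7. The 5 B cell markers (none called, 2 log2 fold changes positive and 3 negative) had 584, 456 and 506 TPM against 701, 471 and 515. The eYFP- library with the highest Isg20 (replicate 1) had the highest erythroid and B cell sums of its group and the lowest sums of the other lists given here. The part of such cells in the Isg20 difference was not tested.

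The other 40 genes were not called between the macrophage groups. Of all 41 log2 fold changes 31 were positive, with a median of 0.21 (0.05 over all genes), and 3 genes had an unadjusted p under 0.05 in DESeq2 as in edgeR (Isg20, Trim30a and Oas2). In 5 genes all eYFP+ libraries lay above all eYFP- libraries in normalized counts (Trim30a, Oas2, Oas1g, Bst2 and Dhx58, of which Bst2 and Dhx58 overlapped in TPM; 6.74% of all genes were higher without overlap), and in 2 they lay below (Isg20 and Rsad2; 8.5% of all genes). Oas2 was at 66.5, 58.4 and 66.7 TPM in eYFP+ and at 29.8, 47.9 and 36 TPM in eYFP- macrophages. The log2 difference was 0.81 ± 0.39 (SE), with a DESeq2 adjusted p of 0.484 in the fit of 12 libraries and of 0.049 without Ly6Clo replicate 2 (log2 difference 0.81), where 4.16% of all genes passed. The edgeR adjusted p was 0.651. Trim30a was at 69.3, 70.9 and 74.4 TPM against 33.5, 68.1 and 45.0 (log2 difference 0.61 ± 0.25, SE, DESeq2 adjusted p = 0.289), and it passed DESeq2 when eYFP- replicate 2 was left out.

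The positive median rested on eYFP+ replicate 1. This library was higher in these genes than the other libraries of its group, with a median log2 ratio of 0.42. Without it the median of the log2 fold changes was -0.03, with 19 positive and 22 negative values. Ifit1 was at 41.4 TPM in this library and at 11 TPM in both of the other eYFP+ libraries, against 30.6, 18.8 and 17.6 in eYFP- macrophages. Its log2 difference was 0.00 ± 0.58 (SE, DESeq2 adjusted p = 1) with all libraries and -1.09 (DESeq2 adjusted p = 0.32) without eYFP+ replicate 1. It was -1.10 (DESeq2 adjusted p = 0.0208) without this library and Ly6Clo replicate 2. Rtp4, a chaperone of receptors that binds viral RNA, followed the same course, at 509.6 TPM in eYFP+ replicate 1, 212 and 211 in the others and 346, 179 and 208 in eYFP- macrophages. Its log2 difference of 0.40 ± 0.52 (SE) changed to -0.28 without that library, and DESeq2 called it in neither fit.

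Bst2, Ifi47, Irgm1, Isg15, Mx1, Stat2 and Gbp2 were not called between the macrophage groups. Bst2 had 408, 518 and 505 TPM in eYFP+ and 359.6, 446 and 390.0 TPM in eYFP- macrophages, which overlapped in TPM but not in normalized counts (log2 difference 0.29 ± 0.21, SE, DESeq2 adjusted p = 0.877). Ifi47 ranged from 194 to 267 TPM in eYFP+ and from 196 to 208 TPM in eYFP- macrophages. Isg15 was at 23.8, 23.8 and 32.4 TPM against 22.6, 32.4 and 38.2, and Mx1 at 28, 26.4 and 28.5 TPM against 21.3, 29.4 and 17.7. Gbp2, Irgm1 and Stat2 overlapped as well, with log2 differences of 0.15 ± 0.40, 0.11 ± 0.33 and 0.24 ± 0.52 (SE), so that these errors do not show that the groups had equal levels.

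Macrophages and monocytes were then compared by the mean of both macrophage groups against the mean of both monocyte groups. Of the 41 genes 4 were higher in macrophages and 10 were lower by DESeq2, and 3 and 10 by edgeR. Among all genes tested 35.4% passed DESeq2, 20.3% as higher and 15% as lower, and 35.6% passed edgeR, 19.8% as higher and 15.8% as lower, so that the share of the interferon-stimulated genes (14 of 41) was near that of all genes. Their median log2 difference was -0.10. Markers of other cells moved with this comparison as well. The 6 erythroid markers were all higher in macrophages by both tests (6939 to 28474 TPM against 274 to 1085 in monocytes) and 1 of 5 B cell markers was (456 to 701 against 28.3 to 139.7 TPM for the list), while 5 of 8 neutrophil and precursor markers were lower (122 to 2615 against 6694 to 23870.4 TPM). The megakaryocyte and platelet markers were higher in macrophages in 3 of 4 cases (121.7 to 199.9 against 2.13 to 75.0 TPM), and of the 6 conventional dendritic cell markers 1 was higher and 2 were lower (3.05 to 40.3 against 109.8 to 2843 TPM), by both tests. The sums of the T and NK cell markers (3 of 8 higher, 1 lower) and of the plasmacytoid dendritic cell markers (3 of 7 higher) overlapped between macrophages and monocytes. The part of these cells in the differences was not tested. Only 2 genes were higher without overlap of the 6 and 6 libraries (10.7% of all genes) and 4 were lower (6.94% of all genes).

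Iigp1, an immunity-related GTPase that disrupts the vacuole of Toxoplasma, had the largest difference of the 41 genes. It was at 159, 92.4 and 130.2 TPM in eYFP+ macrophages and at 87.0, 88.6 and 116 TPM in eYFP- macrophages. The monocyte libraries held 5.90, 5.10 and 5.40 TPM (Ly6Chi) and 6.55, 3.48 and 5.82 TPM (Ly6Clo). The difference was 19.5-fold, or 4.29 ± 0.24 on the log2 scale (SE; DESeq2 adjusted p = 3.13e-69, edgeR adjusted p = 1.85e-07). Of the other 7 GBP and IRG genes, Gbp3 was lower in macrophages and 6 were not called in either direction. Igtp for instance ranged from 91.8 to 157 TPM in macrophages and from 49.5 to 143 TPM in monocytes.

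Ifi44, an interferon-induced antiviral protein, was at 52.0, 40.3 and 39.9 TPM in eYFP+ macrophages, 29.9, 50 and 34.3 in eYFP- macrophages, 19.3, 8.65 and 20.9 in Ly6Chi monocytes and 8.07, 3.40 and 3.05 in Ly6Clo monocytes. The macrophage libraries all lay above the monocyte libraries (log2 difference 2.12 ± 0.32, SE, DESeq2 adjusted p = 4e-10, edgeR adjusted p = 0.000242). Bst2 was higher in macrophages by 0.53 ± 0.15 on the log2 scale (SE; DESeq2 adjusted p = 0.0018, edgeR adjusted p = 0.0137), yet its Ly6Chi libraries overlapped with those of macrophages, while the Ly6Clo libraries, at 163 to 234 TPM, lay below all others. Rsad2 passed DESeq2 (adjusted p = 0.0357) and not edgeR (adjusted p = 0.0555), at 0.63 ± 0.25 on the log2 scale (SE). After correction for GC content neither Bst2 nor Rsad2 passed DESeq2. The Rsad2 call was also lost by DESeq2 with TMM factors (adjusted p = 0.0524) and without independent filtering (adjusted p = 0.0683). It was lost too in most DESeq2 fits that left out 1 library (adjusted p from 0.00632 to 0.124 over these fits).

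The genes lower in macrophages included Samhd1, Zbp1 and Phf11b, which were low in both macrophage groups and high in both monocyte groups. Samhd1 was at 84.2, 88.0 and 97.6 TPM in eYFP+ and 76.5, 87.8 and 89.5 in eYFP- macrophages, against 298 to 474 TPM in the 6 monocyte libraries. This was a 4.79-fold difference, or -2.26 ± 0.14 on the log2 scale (SE; DESeq2 adjusted p = 6.82e-58, edgeR adjusted p = 1.85e-07). Zbp1 ranged from 13.5 to 22.8 TPM in macrophages and from 52.5 to 129 in monocytes (log2 difference -2.21 ± 0.22, SE, DESeq2 adjusted p = 9.18e-22, edgeR adjusted p = 5.57e-06). Phf11b ranged from 38.1 to 75.3 TPM in macrophages and from 178 to 261 in monocytes (log2 difference -2.10 ± 0.25, SE, DESeq2 adjusted p = 2.68e-15, edgeR adjusted p = 2.37e-05).

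Of the OAS family, 4 of 6 genes were lower in macrophages by both tests (Oas1a, Oas3, Oasl1 and Oasl2), while Oas1g and Oas2 were not called. For Oasl2 the macrophage libraries ranged from 42.4 to 70.8 TPM and the monocyte libraries from 72.7 to 294, so that they did not overlap (log2 difference -1.45 ± 0.22, SE, DESeq2 adjusted p = 6.2e-10, edgeR adjusted p = 0.000111). Oas3 stood at 6.81 to 22.9 TPM in macrophages against 114 to 189 in Ly6Chi monocytes, while the Ly6Clo values of 63, 2.16 and 44.0 TPM straddled the macrophage range (log2 difference -2.41 ± 0.53, SE, DESeq2 adjusted p = 3.97e-05, edgeR adjusted p = 0.00631), and the call was lost with limma on log2(TPM + 1) (adjusted p = 0.0866) and on log2(TPM + 0.1) (adjusted p = 0.103). Mx1 (log2 difference -1.14 ± 0.21, SE, DESeq2 adjusted p = 6.89e-07, edgeR adjusted p = 0.000554), Usp18 and Gbp3 completed the list. Of Oas1a, Oas3, Oasl1, Mx1, Usp18 and Gbp3, each was higher in Ly6Chi monocytes than in all macrophage libraries, whereas the Ly6Clo values overlapped with those of macrophages. Oas2 was not called, with 29.8 to 66.7 TPM in macrophages and 9.02 to 72.8 TPM in monocytes (DESeq2 adjusted p = 0.211). Isg15, Ifit1, Stat2, Gbp2, Rtp4, Ifi47, Irgm1 and Ifi35 were not called either, with DESeq2 adjusted p from 0.0602 (Ifit1) to 0.893 (Stat2). The values of Ifit1 and Rtp4 depended on the GC-shifted libraries. Ifit1 had a log2 difference of -0.94 ± 0.41 (SE) with all libraries, of -1.48 without eYFP+ replicate 1 (DESeq2 adjusted p = 6.9e-06) and of -1.34 without both (DESeq2 adjusted p = 4.07e-08), and it also passed with the replicate block (DESeq2 adjusted p = 0.0163). Rtp4 had a log2 difference of 0.64 ± 0.36 (SE) with all libraries and of 0.81 without Ly6Clo replicate 2, where it passed DESeq2 (adjusted p = 0.0359), and of 0.48 without both, where it did not (DESeq2 adjusted p = 0.1).

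**Figure D4:**
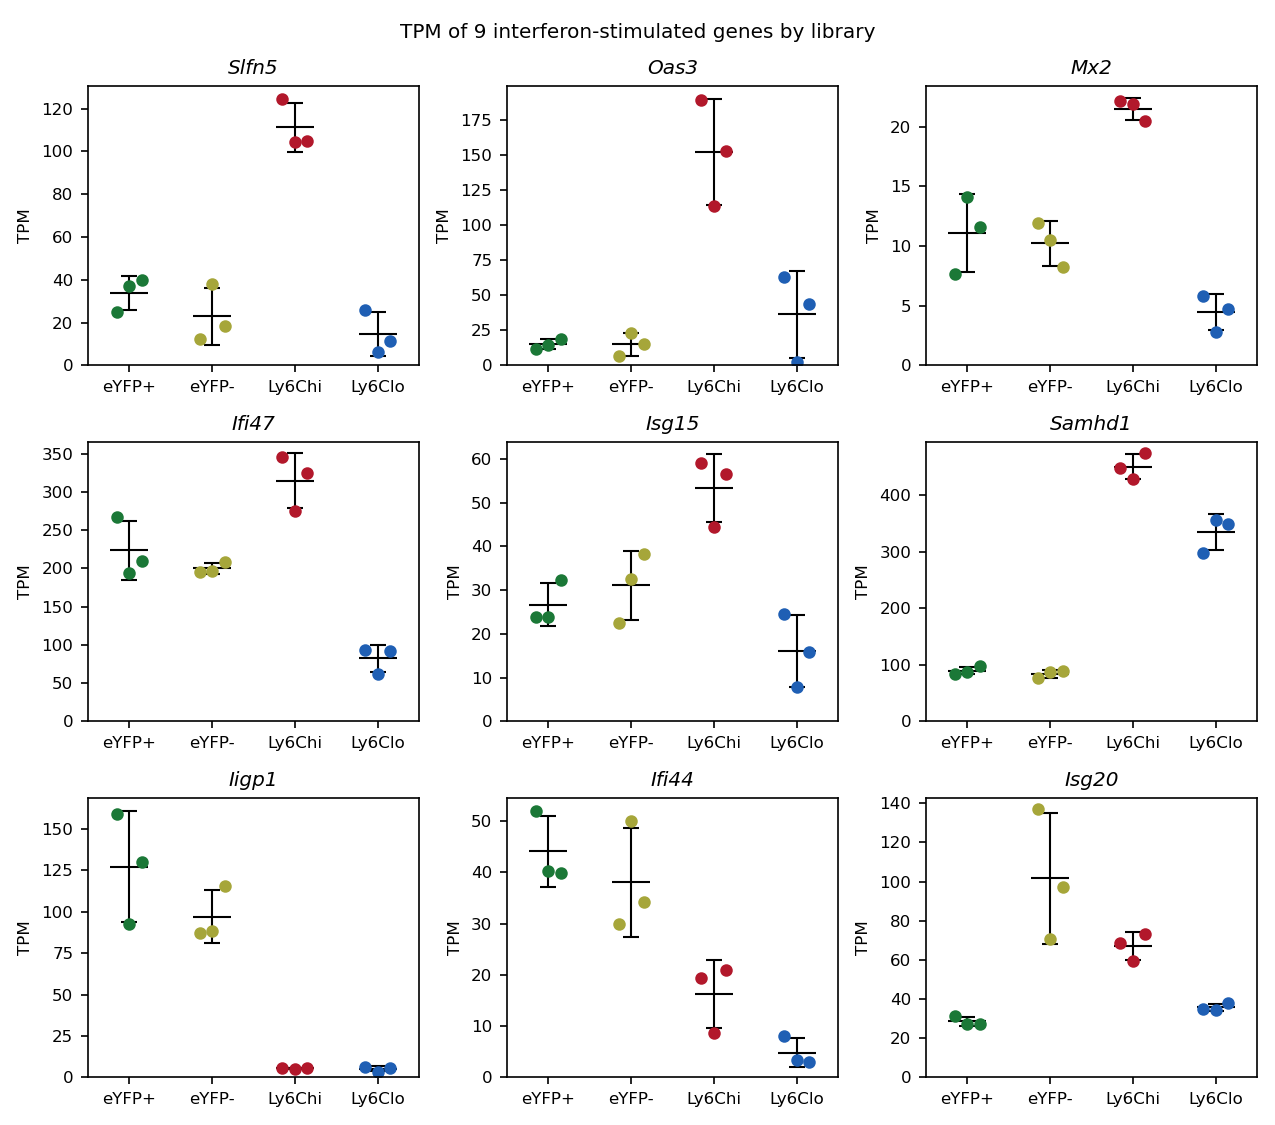
TPM of 9 of the genes in the 4 groups, with a point for each library and lines for the mean and SD of 3 libraries; each panel starts at 0 and has its own scale. Slfn5, Oas3, Mx2, Ifi47 and Isg15 peak in Ly6Chi monocytes, Samhd1 is high in both monocyte groups (298 to 474 TPM), Iigp1 and Ifi44 are high in both macrophage groups, and Isg20 is low in eYFP+ macrophages (27.2 to 31.2 TPM).

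The rest of the interferon pathway was examined in lists of ligands, receptors, signal transducers, inducers and brakes. Transcripts of the ligands were scarce: 9 of 21 had no count in any of the 12 libraries, where a count of 0 allows up to 3 counts of the library total. Ifnb1, the first type I interferon made in most cells, had 8, 1 and 10 counts in the Ly6Chi libraries and none in the other 9. Ifng had 11 counts in eYFP- replicate 2, 1 count in Ly6Clo replicate 3 and none in the other 10. Only Ifnk was frequent enough to be tested, and it was lower in macrophages than in monocytes, with at most 18 counts in a macrophage library and 31 to 113 in a monocyte library (log2 difference -3.50 ± 0.64, SE, DESeq2 adjusted p = 3.6e-07, edgeR adjusted p = 0.0035).

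No gene of these lists was called between the macrophage groups by DESeq2 or edgeR, and Tlr7 and Socs3 were those with an unadjusted p under 0.05 in both tests. The receptor genes were well expressed in all groups. Ifnar1 ranged from 56.9 to 113 TPM over the 12 libraries, Ifnar2 from 40.9 to 218, Ifngr1 from 606 to 1878 and Ifngr2 from 42.7 to 192. None of the 6 receptor genes was called between the monocyte groups (2 had an unadjusted p under 0.05 in DESeq2 and in edgeR). In macrophages Ifnar1, Ifngr1 and Ifngr2 were lower than in monocytes (log2 differences of -0.39, -0.82 and -1.05), and Il10rb was higher (1.06), each past both tests.

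Of the 6 signal transducers none was called between the monocyte groups, although 4 had an unadjusted p under 0.05 in DESeq2 and in edgeR. Irf9, the DNA-binding subunit of the type I complex, was at 148, 154 and 155 TPM in Ly6Chi and at 119, 110.0 and 105 TPM in Ly6Clo monocytes. These values did not overlap, but the log2 difference of 0.46 ± 0.23 (SE) had a DESeq2 adjusted p of 0.225 and an edgeR adjusted p of 0.193. Irf9 was lower in macrophages (log2 difference -0.46 ± 0.16, SE, DESeq2 adjusted p = 0.0156, edgeR adjusted p = 0.0211), as were Jak2 and Stat3.

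Among 12 genes that lead to the production of interferon, 3 were higher in Ly6Chi than in Ly6Clo monocytes with both tests, and none was lower. Irf7, the factor that amplifies type I interferon and is itself induced by it, was at 727, 465 and 696 TPM in Ly6Chi and at 246, 117 and 214 TPM in Ly6Clo monocytes. The difference was 1.73 ± 0.38 on the log2 scale (SE; DESeq2 adjusted p = 0.000189, edgeR adjusted p = 0.0134). Ikbke, a kinase upstream of IRF7, was at 25.9, 24.1 and 35.5 TPM against 3.28, 1.11 and 4.58 (log2 difference 3.27 ± 0.46, SE, DESeq2 adjusted p = 1.19e-10, edgeR adjusted p = 0.00207). Sting1, the adaptor of cytosolic DNA sensing, was at 152, 170.0 and 165 TPM against 90, 80.0 and 77.1 (log2 difference 0.98 ± 0.24, SE, DESeq2 adjusted p = 0.00132, edgeR adjusted p = 0.0178).

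None of the 9 brakes was called between the monocyte groups, with Socs1 closest to the threshold (log2 difference 1.10, DESeq2 adjusted p = 0.0521, edgeR adjusted p = 0.11).

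Between the cell types 4 inducers were higher in macrophages and 3 were lower. Mavs, the adaptor of RNA sensing, was at 125 to 184 TPM in macrophages and at 31.7 to 56.4 TPM in monocytes (log2 difference 1.71 ± 0.16, SE, DESeq2 adjusted p = 2.3e-24, edgeR adjusted p = 6.37e-06), and Tlr3, Tlr7 and Irf3 were higher as well. Sting1 (log2 difference -1.30 ± 0.17, SE, DESeq2 adjusted p = 3.09e-13, edgeR adjusted p = 3.93e-05), Myd88 and Cgas were lower in macrophages. Of the 9 brakes of interferon signalling, 5 were lower in macrophages with both tests (Socs1, Socs3, Ptpn1, Ptpn6 and Ptpn11), and none was higher at an unadjusted p under 0.05 in either test.

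**Figure D5:**
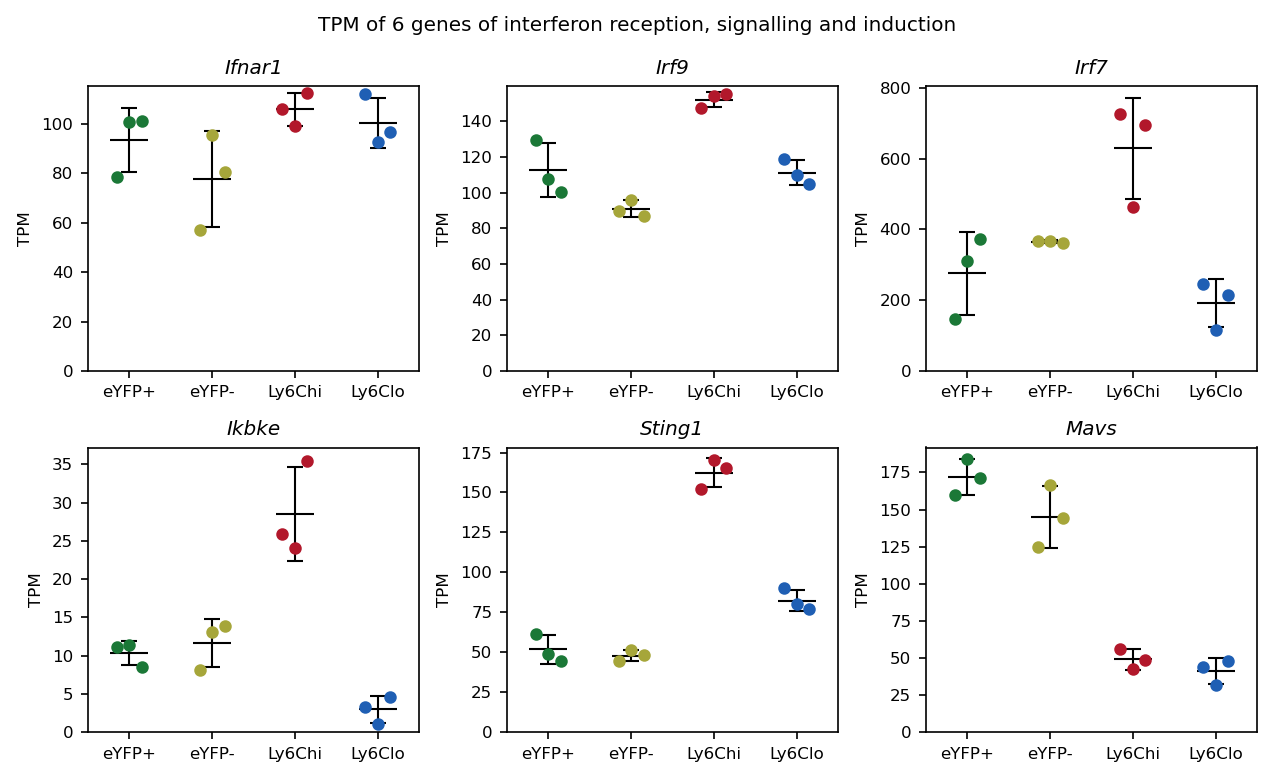
TPM of 6 genes of interferon reception (Ifnar1), signalling (Irf9) and induction (Irf7, Ikbke, Sting1 and Mavs) in the 4 groups, with a point for each library and lines for the mean and SD of 3 libraries; each panel starts at 0 and has its own scale. Irf7, Ikbke and Sting1 are highest in the Ly6Chi libraries, while Mavs lies at 125 to 184 TPM in macrophages and at 31.7 to 56.4 TPM in monocytes.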

How the data were processed

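Polyadenylated RNA of sorted cells was amplified as full-length cDNA without molecular identifiers and sequenced. According to the methods of the study, reads were trimmed by the authors (Trimmomatic, Cutadapt), error-corrected (Rcorrector), freed of ribosomal RNA (SortMeRNA) and aligned to GRCm39 with Ensembl annotation (segemehl), and the authors deposited counts of unambiguous read pairs per gene (featureCounts; strand setting not stated). The authors also deposited TPM, which are counts per gene length that sum to 1000000 in each library. A deposited table of variance-stabilised values was not used here. Intervals from counts of 0 cover counting error only.

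DESeq2 1.42.0 (R 4.3.3), which the study's methods name in an earlier version, was fitted to all 12 libraries at once with a single factor, the group, using median-of-ratios size factors, unshrunken log2 fold changes, Cook's cutoff, independent filtering and Benjamini-Hochberg adjustment over all genes tested (threshold 0.05); fitted values were kept to 4 significant digits. The edgeR 4.0.16 quasi-likelihood test (filterByExpr, TMM) was run beside it. Overlap of libraries within a comparison was counted on normalized counts, and the order of the 4 groups on TPM. Sample titles gave the group and number of each library, and descriptions tied them to the columns. Symbols, GC content and shared 50-base words came from GENCODE transcripts of another build (names for 91.4% of identifiers), promoter sequences from RefSeq (GRCm38.p6). Of 37 promoters of the genes, 30 continued into a known transcript of the same gene and none in the reverse direction.

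The members, role groups, marker and pathway lists were chosen with earlier results of these data known. In each comparison the first 6 called members by adjusted p in each direction, the 4 uncalled members with the highest TPM, and Isg15, Ifit1, Mx1, Oas2, Stat2, Gbp2 and Bst2 were named, with others named after their values were seen. Alternatives were edgeR, TMM factors, fits without Cook's cutoff or without independent filtering, a filter of at least 10 counts in 3 libraries, GC correction, a block for the replicate number, limma 3.58.1 on log2(TPM + 1) or log2(TPM + 0.1), the 6 libraries of a comparison, and leaving out each library; leaving out both GC-shifted libraries was chosen after seeing the data.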

Additional observations from a re-analysis of the deposited data

How the results depend on the processing

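The monocyte comparison kept its direction under every alternative run, with 17 (limma on log2(TPM + 1) and log2(TPM + 0.1)) to 37 members called higher and none lower. Of all genes 2.26% and 2.04% passed in these limma fits and 13.6% in the fit without both GC-shifted libraries, which called the 37. When 1 library was left out, 18 (without Ly6Chi replicate 1, 6.51% of all genes) to 31 members (without Ly6Clo replicate 2, 9.70%) were called. The median log2 fold change stayed between 1.23 and 1.45 in those fits. The macrophage and monocyte comparison gave 13 to 19 called members in all, in fits where 14.9% to 44.7% of all genes passed. When 1 library was left out it gave 13 to 18 (18 without Ly6Clo replicate 2), with a median between -0.24 and -0.06. In those fits 19.1% to 39.2% of all genes passed. Between the macrophage groups 1 to 2 members were called when 1 library was left out (1.31% to 4.16% of all genes), with a median between -0.03 and 0.30. Trim30a was added without eYFP- replicate 2 and Oas2 without Ly6Clo replicate 2. In the same comparison 2 members were called (4.61% of all genes) and the median was -0.04 without both GC-shifted libraries. With the replicate number as a block edgeR called 0 (0.125% of all genes), and Isg20 had a log2 difference of -1.79 and an edgeR adjusted p of 0.0744.

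The labels do not say what a shared replicate number stands for, so the numbers were not taken to pair the samples. Deviations from the group means were correlated between same-numbered libraries over the 2000 most variable genes. The correlations were 0.134, 0.0499 and 0.0466 for the macrophage groups and lay between -0.0314 and -6.1e-05 for the monocyte groups. With 3 libraries per group, and GC-shifted libraries among them, these values cannot decide whether the samples were paired. The numbers that end the column names run in blocks by replicate number, and their meaning is not stated. With the block DESeq2 called 1, 23 and 15 members in the macrophage, monocyte and joint comparisons (3.03%, 6.29% and 23.0% of all genes). With it edgeR called 0, 18 and 15 (0.125%, 2.80% and 31.3% of all genes). The block took Eif2ak2 and Gbp7 from the DESeq2 calls of the monocytes and added Ifit1 to the joint comparison (DESeq2 adjusted p = 0.0163).

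The changes of sign were in values that were not called with all libraries. Ifit1 between the macrophage groups (0.00) became -0.0093 with edgeR, -0.0198 with TMM factors, -0.0017 with a minimum of 10 counts, -0.164 with the block, -0.178 with edgeR and the block, -0.166 with the block and the minimum, -0.161 with GC correction, -0.309 and -0.334 with limma (-0.309 for genes of at least 1 TPM) and -1.10 without both GC-shifted libraries. In that last fit Rtp4 was at -0.29, Ifi47 at -0.04, Irgm1 at -0.20 and Gbp2 at -0.0612 between the macrophage groups, and Stat2 at -0.12 between macrophages and monocytes. With limma Isg15 was at 0.0125, 0.0263 and 0.0125 between macrophages and monocytes. When 1 library was left out, the macrophage values ranged from -0.28 to 0.83 for Rtp4, -0.0315 to 0.32 for Ifi47, -0.19 to 0.25 for Irgm1, -0.0525 to 0.43 for Gbp2, -1.09 to 0.40 for Ifit1 and -0.32 to 0.0073 for Isg15. Phf11b ranged from -0.0557 to 0.20 between the monocytes, and Stat2 from -0.19 to 0.26 and Isg15 from -0.33 to 0.06 in the joint comparison. The summed level of eYFP- macrophages relative to the mean of the 4 groups was 0.853 in TPM and 0.754 in normalized counts. The cause of these changes was not tested.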
